A study of Mus musculus with 5 samples.

Results

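The Sox genes encode transcription factors that bind DNA through an HMG box related to that of the sex-determining gene Sry. The 9 mouse Sox genes Sox2, Sox4, Sox5, Sox6, Sox8, Sox9, Sox10, Sox11 and Sox12 were listed by name and looked up by symbol among the 27729 genes of the deposited tables. All 9 were found, and all 9 reached 10 expected counts in at least 1 library, as did 13346 genes in all, which are called kept below.

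The libraries follow mouse embryonic fibroblasts (MEFs), cells grown out of embryonic connective tissue, through the induction phase of a conversion towards TuJ+ neuron-like cells by defined medium. Day 0 is MEFs of the ICR strain in growth medium with serum (DMEM, 10% FBS, Glutamax and NEAA), and days 2, 5, 10 and 14 are the same cells after the change to the induction medium, which the study calls 5C and the labels call 6C. The labels name no transgene or deletion for these 5 libraries. By the study's methods, heads and inner organs were discarded before MEFs were prepared, and loosely attached cells were washed off. The last library carries the label day 14, whereas the treatment text names day 15, and the seeding density in the labels is 5000 cells per well of a 6-well plate, below that in the study's methods. Total RNA was taken from cells lysed in Trizol and made into libraries with the TruSeq RNA kit, with 1 library per day. No difference between days therefore has a replicate check, and no p-value or SD is given. Fewer cells of a type and less RNA per cell cannot be told apart in such bulk RNA.

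Sox factors are grouped by the sequence of their HMG box. Sox2, of the SoxB1 group, maintains neural stem cells and pluripotent cells. Sox4, Sox11 and Sox12 form the SoxC group, which acts in neural and mesenchymal progenitors and in newly formed neurons. Sox5 and Sox6, of the SoxD group, lack an activation domain of their own and work beside other Sox factors, among them Sox9 in cartilage. Sox8, Sox9 and Sox10 form the SoxE group, in which Sox9 is required for cartilage and for the start of gliogenesis and Sox10 for the neural crest, Schwann cells, melanocytes and oligodendrocytes.

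Of the 9 genes, 7 have entries in the RefSeq promoter table (GRCm38.p6), with 12 start sites between them. Sox9 and Sox10 have no entry. The 250 bases before each start were searched on both strands for ACAAAG, a core sequence that Sox factors bind, which 16.5% of all 32851 promoters in that table hold. It lies before the Sox2 start and before 5 of 6 Sox6 starts, and before no start of Sox4, Sox5, Sox8, Sox11 or Sox12. The promoters of Sox2 and Sox6, 2 of the genes that were higher late, are shown with the promoter of Sox4, the most abundant Sox gene of the starting MEFs. They are written 5′ to 3′ on the gene's strand, and capitals mark ACAAAG on either strand. The Sox2 window is chr3:34649745-34649994 on the plus strand, the Sox6 window chr7:116038745-116038994 on the minus strand and the Sox4 window chr13:28953700-28953949 on the minus strand.
Sox2: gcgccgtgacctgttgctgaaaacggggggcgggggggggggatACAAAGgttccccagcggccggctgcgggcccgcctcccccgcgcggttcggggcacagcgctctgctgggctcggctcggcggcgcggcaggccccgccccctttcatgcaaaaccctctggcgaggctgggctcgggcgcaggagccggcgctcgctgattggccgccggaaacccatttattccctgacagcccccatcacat
Sox6: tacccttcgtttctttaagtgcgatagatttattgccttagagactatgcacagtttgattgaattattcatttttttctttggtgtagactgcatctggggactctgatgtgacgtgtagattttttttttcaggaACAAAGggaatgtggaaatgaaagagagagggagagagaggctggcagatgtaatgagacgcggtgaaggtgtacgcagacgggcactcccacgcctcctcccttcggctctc
Sox4: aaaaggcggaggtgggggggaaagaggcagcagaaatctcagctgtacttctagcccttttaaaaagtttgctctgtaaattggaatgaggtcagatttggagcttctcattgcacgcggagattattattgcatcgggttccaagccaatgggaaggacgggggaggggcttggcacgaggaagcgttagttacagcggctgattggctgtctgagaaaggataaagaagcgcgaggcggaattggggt
In the Sox2 window the motif begins 206 bases before the start, and in the Sox6 window 113 bases before it. The related letters ACAATG stand before 3 of the 12 starts, all of Sox5 or Sox6, against 10.7% of all promoters. TTCNNNGAA, the palindrome that STAT factors bind, stands before 2 of the 12, both of Sox6 and neither of Sox2, against 7.02% of all. Since 6 of the 12 starts belong to Sox6, the starts are not separate genes, and these numbers are no measure of enrichment. These matches describe letters in a window and no binding was measured.

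The summed expected counts ranged from 2253748 on day 2 to 3890334 on day 0, so 3 counts correspond to 0.771 to 1.33 per 1000000 counts. The day 2 library was the shallowest and the most uneven, with 14.2% of its counts in 10 genes against 6.30% to 8.57% in the other libraries. To normalize, each library's expected counts were scaled by its effective size, for which edgeR's TMM method gave the factors. Values in brackets after a fold or level are exact 95% intervals of the counts, which cover counting error only, since PCR reads without molecular identifiers are not independent molecules.

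Against day 0, the Sox genes divided into a small group that was far higher by days 10 and 14 (Sox2, Sox10 and Sox6), a group with low counts (Sox5 and Sox8), and a group within about 2-fold of its starting level on most days (Sox4, Sox9, Sox11 and Sox12). On day 14 Sox10 was 288-fold (139 to 717) and Sox2 167-fold (57.0 to 814) of day 0, while Sox11 was 0.461-fold (0.318 to 0.663). A gene was counted as over 2-fold when its log2 ratio of (normalized count + 1) passed 1 or -1. On day 2, 3 Sox genes were over 2-fold higher and 2 lower, all with 12 or fewer expected counts in either library, beside 15.2% and 13.1% of all 13346 genes. On day 5, 4 were higher and 0 lower, beside 20.2% and 13.6% of all genes. On day 10, 5 were higher and 0 lower, beside 28.7% and 22.3%, and on day 14, 4 were higher and 1 lower, beside 24.5% and 19.9%.

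The median log2 change of the 9 genes was 0.75, 0.53, 1.56 and 0.90 on days 2, 5, 10 and 14, against -0.03, 0.05, 0.14 and 0.07 over all 13346 genes. From day to day, 4 Sox genes were over 2-fold higher and 0 lower between days 2 and 5, beside 19% and 12.5% of all genes. Between days 5 and 10 the numbers were again 4 and 0, beside 12.8% and 9.5%. Between days 10 and 14 only Sox2 was over 2-fold higher and Sox5 and Sox11 lower, beside 4.73% and 8.33% of all genes. The scale matters for these counts, because TPM, a level per gene length scaled to a fixed library total, shifts the median gene. A pseudocount of 1 TPM was also added before these ratios, which shrinks the changes of genes near or below 1 TPM. From day 0 to day 2 Sox10 went from 0.9 to 2.35 TPM and Sox6 from 0.91 to 0.24 TPM. Their log2 changes with this pseudocount were 0.82 and -0.62, so neither was counted. On the TPM scale the median gene was 0.61, 1.09 and 0.78 higher (log2) on days 5, 10 and 14 and 0.20 lower on day 2, and the share of genes over 2-fold that were higher was 36.0%, 88.9%, 88.6% and 85.7% on days 2, 5, 10 and 14, against 53.7%, 59.6%, 56.3% and 55.2% with normalized counts. With TPM, 0, 3, 7 and 5 of the 9 Sox genes were over 2-fold higher on those days, beside 7.9%, 32%, 52.9% and 41.6% of all genes, and 0 were lower on any day, beside 14%, 3.98%, 6.77% and 6.96%.

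**Figure D1:**
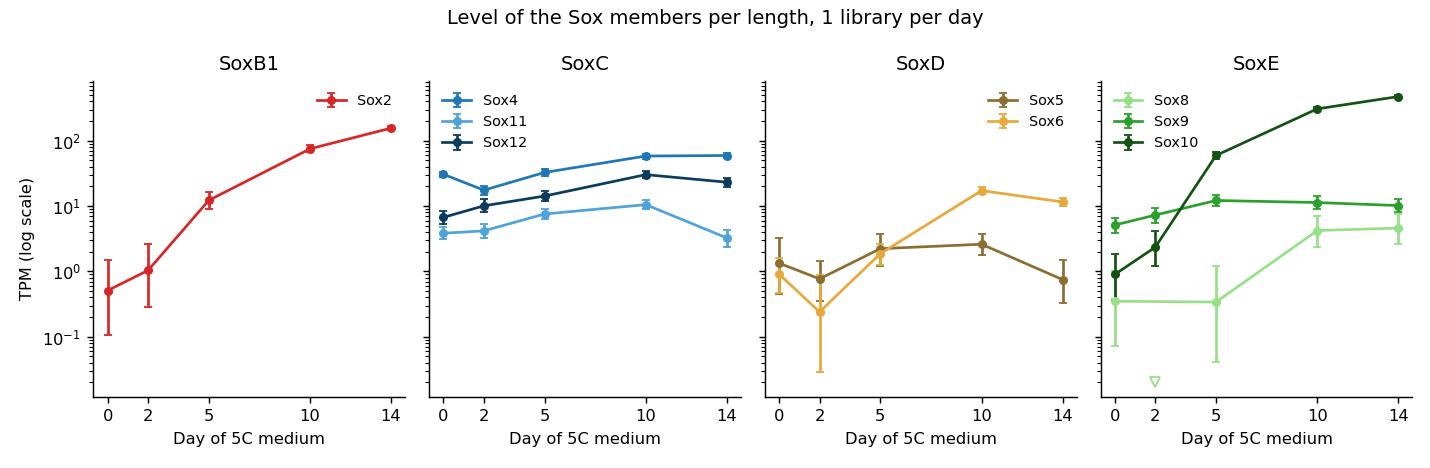
TPM (log scale) of the 9 Sox genes by day of induction medium, with 1 point per library, bars for the 95% counting interval and a panel per group (open triangle, Sox8 at 0 TPM on day 2). Sox10 and Sox2 pass from below 1 TPM on day 0 to 474.98 and 156.38 TPM on day 14, while Sox4 lies between 17.53 and 59.48 TPM throughout.

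Sox2 is a single-exon gene on chromosome 3 (34650405 to 34652461, plus strand, GRCm38). It had 3, 4, 50, 274 and 556 expected counts from day 0 to day 14. The day 0 and day 2 values lie within counting error of each other, at 2.44-fold (0.412 to 16.6), and each later library was above the one before it. Sox2 was 6.05-fold (2.22 to 23.1) from day 2 to day 5, 4.47-fold (3.30 to 6.17) from day 5 to day 10 and 2.54-fold (2.19 to 2.95) from day 10 to day 14. It was thus among the 4.73% of all genes that were over 2-fold higher in the last interval. By TPM it ranked 13070 among the 27729 genes in MEFs, and 2779 and 1159 in the day 10 and day 14 libraries. Sox2 lies wholly within the same-strand transcript Sox2ot, which was not used here, so reads that both genes could share cannot be assigned with certainty.

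Among the 8273 genes whose expected count reached 100 in at least 1 library, the day course most like that of Sox2 belonged to Mmp17, a membrane-bound matrix metalloproteinase, Cadm4, a cell adhesion molecule that myelinating glia carry, and the complement gene C4b. The root mean square difference of their centred log2 values from those of Sox2 was 0.31, 0.31 and 0.34 over the 5 libraries. Cadm4 had normalized counts of 55.4, 148, 837, 3631 and 5333 from day 0 to day 14, beside 2.97, 7.24, 43.8, 196 and 497 for Sox2.

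Beside Sox2 the study examined Stat3, Tubb3, Robo1, Reln and Map1b, a list that these libraries helped to choose and that is therefore no independent evidence of its direction. Of the 5, those over 2-fold higher numbered 1, 2, 5 and 4 over days 2, 5, 10 and 14, with 0 lower on any day and a median log2 change of 2.18 on day 14. Reln, a secreted guide of neuron migration, had 9, 12, 21, 944 and 493 expected counts from day 0 to day 14. It was therefore highest on day 10, and Sox2 on day 14.

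Known partners and companions of Sox2 differed in level. Of 6 pluripotency genes only Klf4 held 10 or more counts in a library, with 226 on day 0 and 268 on day 14, a ratio of 1.07 (0.894 to 1.28). Of 7 neural stem cell markers 4 were kept, and on day 14, 3 were over 2-fold higher and 1 lower. Nes, an intermediate filament of neural progenitors that fibroblast cultures also express, was 4.40-fold (4.05 to 4.79) on day 14, while Emx2, a forebrain homeobox gene, was 0.311-fold (0.180 to 0.536).

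Sox10 lies on chromosome 15 (79154908 to 79165240, minus strand). It had 7, 12, 320, 1478 and 2230 expected counts from day 0 to day 14. All libraries after day 2 lie far above both early ones, and the counting intervals of neighbouring days from day 2 on do not meet. The largest step came between days 2 and 5, at 12.9-fold (7.28 to 25.2), followed by 3.77-fold (3.34 to 4.27) to day 10 and 1.89-fold (1.77 to 2.02) to day 14. Sox10 passed Sox4 between days 2 and 5 and was the most abundant Sox gene by TPM in the libraries of days 5, 10 and 14. Its rank among all genes by TPM went from 12044 on day 0 to 297 on day 14.

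The ratio of Sox10 to Sox2 by TPM, taken over days 5, 10 and 14, was 4.85 (3.59 to 6.67), 4.09 (3.59 to 4.67) and 3.04 (2.77 to 3.34). Sox10 was the higher of the pair in every library, although on days 0 and 2 the interval of their ratio included 1. The interval of day 14 lies below those of days 5 and 10.

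Sox10 directly regulates genes of Schwann cells and melanocytes. Of 11 such genes 9 were kept, of which 3 were over 2-fold higher and 2 lower on day 2, 4 and 1 on day 5, 8 and 1 on day 10, and 7 and 1 on day 14. Their median log2 change was -0.08, 0.05, 2.98 and 2.23 on these days, so the median of the list was near 0 on day 5, when Sox10 was already 40.5-fold (19.4 to 101) of day 0. Erbb3, the neuregulin receptor of Schwann cell precursors, had 9, 19, 217, 1320 and 1135 expected counts.

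Markers of Schwann cells and neural crest moved over the same days as Sox10. Of 8, 7 were over 2-fold higher and 0 lower on each of days 5, 10 and 14, and their summed normalized count was 125, 147, 792, 4747 and 6793 from day 0 to day 14. Cdh19, a cadherin of Schwann cell precursors, had 4, 2, 97, 1178 and 1295 expected counts, and Ngfr, the p75 neurotrophin receptor, 35.1, 19.1, 369, 3473 and 4518. Foxd3, a neural crest transcription factor, was 88.7-fold (44.8 to 206) on day 14. Of 6 oligodendrocyte lineage markers 4 were kept, all 4 over 2-fold higher on day 14. Olig2, at 1, 1, 3, 1 and 12 expected counts over the 5 libraries, was kept only because of its day 14 value. Its call is therefore not independent of the filter. Nkx2-2 and Mog, which the filter left out, were at 0 in the day 14 library. Mag, at 0 in the starting MEFs, reached 178 expected counts in the day 10 library and 24 in the last. Olig1 had 0, 5, 2, 31 and 234 expected counts and was at least 70.5-fold higher on day 14 against a floor of 3 counts on day 0. The exact 95% lower limit of the ratio is 56.8. The part of any of these cell types in the Sox10 level was not tested. The genes nearest to Sox10 in day course were Lgi4, a secreted protein of Schwann cells, C4b and Col6a6, at root mean square differences of 0.34, 0.35 and 0.37.

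**Figure D2:**
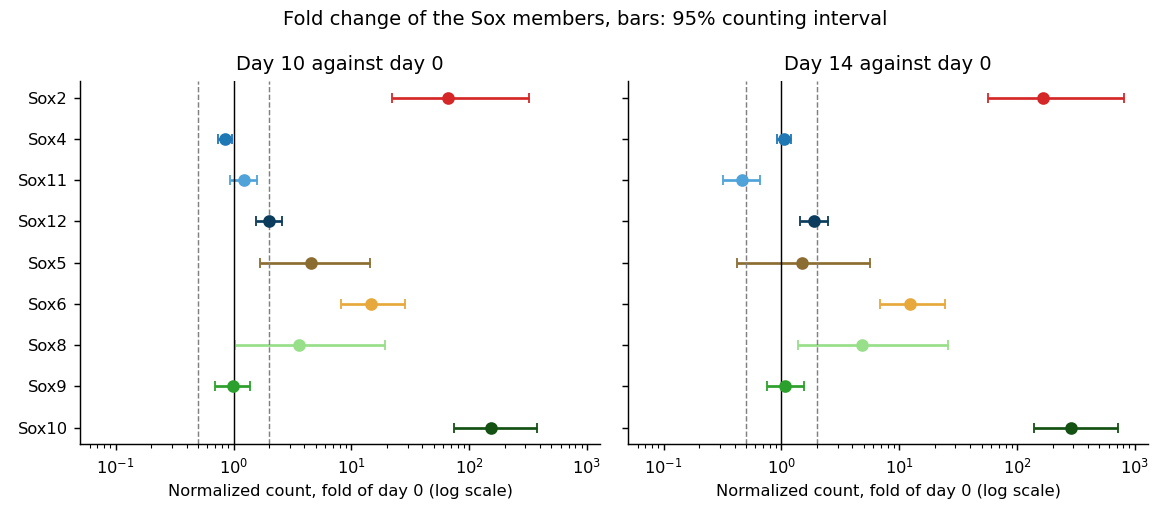
Fold of day 0 in normalized counts (log scale) for each Sox gene on days 10 and 14, with bars for the 95% counting interval, a solid line at 1-fold and dashed lines at 2-fold higher and lower. Sox2, Sox6 and Sox10 lie wholly above the 2-fold line on both days, and only Sox11 on day 14 has its value below the lower dashed line.

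The other SoxE genes had far smaller changes than Sox10. Sox9, on chromosome 11 (112782224 to 112787760, plus strand), had 61, 57, 100, 83.0 and 73 expected counts from day 0 to day 14. Its normalized counts of 60.4, 103, 87.5, 59.3 and 65.3 were highest on day 2, at 1.71-fold (1.17 to 2.49) of day 0, whereas TPM was highest on day 5 (12.19), and on day 14 were 1.08-fold (0.759 to 1.54). On the TPM scale Sox9 was 0.87 higher (log2) on day 14, about the shift of the median gene, and relative to genes of its own length it was 0.22 lower. The ratio of Sox10 to Sox9 by TPM went from 0.175 (0.0677 to 0.384) on day 0 to 46.6 (36.9 to 59.7) on day 14. Sox8, on chromosome 17 (25565892 to 25570686, minus strand), had 3, 0, 2, 15 and 16 expected counts. Its day 14 level was 4.82-fold (1.38 to 25.8) of day 0, and the first 3 libraries cannot be separated at this depth. Sox8 overlaps the antisense gene 2810468N07Rik by 329 bases, which had 17, 1, 11, 22 and 15 expected counts, and without strand reads from the overlap cannot be told apart.

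Sox5 and Sox6 encode the SoxD proteins, which in cartilage act as partners of Sox9. Sox6, on chromosome 7 (115470872 to 116038796, minus strand), had 12, 2, 30, 244 and 163 expected counts. It was low in the first 3 libraries and high on days 10 and 14, at 14.7-fold (8.25 to 28.8) and 12.3-fold (6.84 to 24.2) of day 0. Between days 5 and 10 it was 6.64-fold (4.53 to 10.1), a larger step than those of Sox2 and Sox10, though its interval overlaps that of Sox2. Relative to genes of their own length these steps were 2.13 for Sox6, 2.40 for Sox2 and 1.95 for Sox10 (log2), which puts Sox2 above Sox6. Sox5, on chromosome 6 (143828425 to 144781977, minus strand), had 4.8, 9, 14, 30 and 8 expected counts. It was 4.51-fold (1.66 to 14.3) on day 10 and then 0.334-fold (0.132 to 0.745) from day 10 to day 14, which brought it to 1.51-fold (0.417 to 5.61) of day 0. On the TPM scale Sox5 was -0.40 on day 2 and -0.42 on day 14 (log2), against 1.59 and 0.50 with normalized counts, so its direction turned there.

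Sox5 and Sox6 were level with each other by TPM through day 5, and Sox6 was 6.61-fold (4.51 to 10.0) of Sox5 on day 10 and 15.5-fold (7.66 to 36.4) on day 14. Both genes have many transcripts (14 and 16 in GENCODE M21), and the gene length that RSEM used ran from 1284 to 6487 bases for Sox5 and from 4350 to 8111 bases for Sox6 between libraries, which enters their TPM. Cartilage genes that Sox9, Sox5 and Sox6 regulate together went both ways. Of 10 kept, 0 were over 2-fold higher and 5 lower on day 2, and 3 were higher and 3 lower on day 14. Col2a1, the main cartilage collagen, had 606, 87, 29, 8.70 and 3 expected counts, Acan, the main cartilage proteoglycan, 45, 5, 5, 0 and 0, and Cnmd (chondromodulin) 0, 0, 1, 120 and 61. The genes nearest to Sox6 in day course were Txndc16, Tspan18 and Itgb8, at root mean square differences of 0.22, 0.23 and 0.29.

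The SoxC genes were the main Sox genes of the starting MEFs. Sox4, a single-exon gene on chromosome 13 (28948919 to 28953713, minus strand), had 424, 159, 312, 496 and 494 expected counts. Its normalized counts of 420, 288, 273, 354 and 442 were lowest on day 5, at 0.650-fold (0.560 to 0.755) of day 0, and on day 14 were 1.05-fold (0.922 to 1.20). With TPM its day 5 change was 0.09 and its day 10 change 0.90 (log2), against -0.62 and -0.24 with normalized counts, so the dip of days 5 and 10 is not seen on that scale. With library totals the day 5 change was smaller (-0.25) and that of day 10 turned (0.23). The day 2 change was negative on all 3 scales, at -0.54 with normalized counts, -0.78 with TPM and -0.62 with library totals. Sox4 overlaps the antisense noncoding gene Gm26735 by 2753 bases, whose expected counts were 0, 0, 34.2, 154 and 11.3, and without strand reads from the overlap cannot be told apart.

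Sox11, a single-exon gene on chromosome 12 (27334264 to 27342574, minus strand), had 92.0, 66.0, 125, 155 and 47 expected counts. The first 4 libraries differed little, with normalized counts of 91.1, 119, 109 and 111, and the day 14 library was lower, at 42.0. On the TPM scale Sox11 was 1.25 higher (log2) on day 10, where the median gene was 1.09 higher. From day 10 to day 14 Sox11 was 0.380-fold (0.268 to 0.529), beside 8.33% of all genes over 2-fold lower, and this step was -1.44 (log2) with TPM and -1.38 with normalized counts. Against day 0 the day 14 change was -1.10 with normalized counts, -0.75 with library totals and -0.18 with TPM. The genes nearest to it in day course were Incenp, a subunit of the chromosomal passenger complex of mitosis, Tanc1 and Upk1b, at root mean square differences of 0.19, 0.20 and 0.21.

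Sox12, on chromosome 2 (152393611 to 152398063, minus strand), had 86.0, 79.6, 126, 239 and 179 expected counts. It was higher than on day 0 in all later libraries, at 1.69-fold (1.24 to 2.33) on day 2, 2.00-fold (1.56 to 2.60) on day 10 and 1.88-fold (1.45 to 2.46) on day 14. The counting interval of its day 5 value, 1.29-fold (0.977 to 1.72), includes 1. Sox11 and Sox12 thus went apart between days 10 and 14, when Sox12 was 0.937-fold (0.768 to 1.14).

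Of 3 listed genes that Sox4 and Sox11 activate, 2 were kept, and both were over 2-fold higher on days 5, 10 and 14. The third, Dcx, a marker of young neurons, had 1 expected count on day 0 and 0 in every later library. Tubb3, the neuron tubulin that the TuJ1 antibody detects, was 7.26-fold (4.73 to 12.1) on day 14 and Tead2, a transcription factor of the Hippo pathway, 2.57-fold (2.13 to 3.12). Neuron markers as a list were split, with 3 of 7 kept genes over 2-fold higher and 3 lower on day 14 and a median log2 change of -0.32. Map2, a dendrite protein, went from 198 expected counts in MEFs to 51 at the end. Snap25, a synaptic protein, had 0, 0, 22, 12.0 and 7.01 expected counts from day 0 to day 14 and was thus highest on day 5.

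Per length, the order of the Sox genes changed from day 0 to day 14. On day 0 Sox4 stood first at 30.74 TPM (27.9 to 33.8), followed by Sox12 at 6.72 (5.37 to 8.30), Sox9 at 5.13 (3.92 to 6.59) and Sox11 at 3.84 (3.09 to 4.71). Sox5, Sox6, Sox10, Sox2 and Sox8 lay between 1.34 and 0.35 TPM, and below Sox4 no neighbours in the order differed beyond counting error. On day 14 the order was Sox10 at 474.98 TPM (455 to 495), Sox2 at 156.38 (144 to 170), Sox4 at 59.48 (54.3 to 64.9), Sox12 at 23.2 (19.9 to 26.9), Sox6 at 11.59, Sox9 at 10.19, Sox8 at 4.61, Sox11 at 3.26 and Sox5 at 0.75. The first 4 were each separate from the next, while Sox6 with Sox9, and Sox8 with Sox11, overlapped.

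The summed level of the 9 genes was 50.44, 43.5, 143.05, 517.99 and 744.44 TPM from day 0 to day 14. SoxC genes made up 81.9% of it on day 0, 38.1% on day 5 and 11.5% on day 14. SoxE genes, nearly all of it Sox10 late, made up 12.6%, 50.4% and 65.8% on these days, and SoxB1, which is Sox2, 1.01%, 8.58% and 21.01%. The SoxD genes among the 9, Sox5 and Sox6, held 4.46% on day 0 and 1.66% on day 14. Sox13, a SoxD gene outside the 9, is not in this sum. It was at 1.1 TPM on day 0 and 81.05 TPM on day 14, so these shares do not describe the whole SoxD group. The smaller SoxC share late came with no lower summed SoxC TPM, which was 41.3 on day 0 and 85.94 on day 14. These sums include the TPM shift of the median gene, which was 0.78 higher (log2) on day 14. In normalized counts Sox4 went from 420 on day 0 to 442 on day 14, Sox12 from 85.1 to 160 and Sox11 from 91.1 to 42.0.

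**Figure D3:**
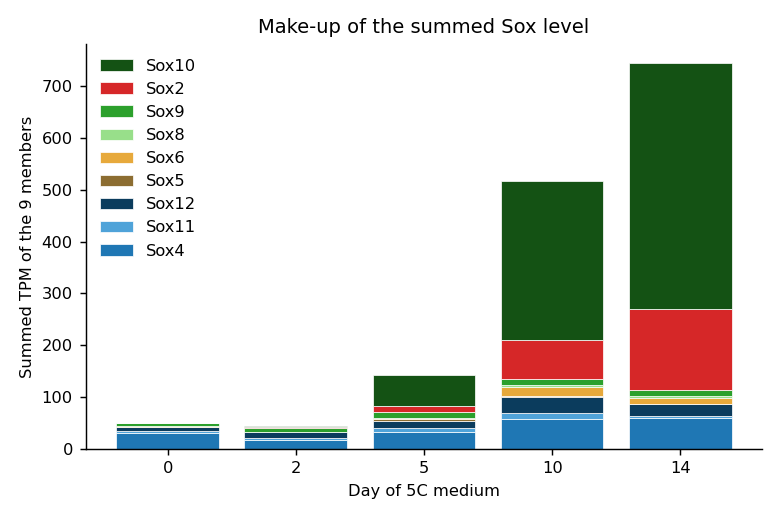
Summed TPM of the 9 Sox genes in each of the 5 libraries, stacked by gene in the colours of the key. The sum is 50.44 TPM on day 0, mostly Sox4, and 744.44 TPM on day 14, mostly Sox10 and Sox2.

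Gene length moved with the change over days. Among all 13346 genes split into 5 groups by length, the shortest group had a median log2 change of -1.15 on day 10 and -0.78 on day 14, and the longest group 0.92 and 0.50. Sox4, Sox5, Sox6, Sox11 and Sox12 belong to the longest group, Sox9 to the fourth, Sox8 and Sox10 to the third and Sox2 to the second. Relative to the median of their own length group, the day 14 log2 changes were 7.81 for Sox10, 7.09 for Sox2, 3.01 for Sox6, 1.78 for Sox8, 0.40 for Sox12, 0 for Sox5, -0.22 for Sox9, -0.43 for Sox4 and -1.60 for Sox11. On day 10 the same values were -1.17 for Sox4 and -0.65 for Sox11. On day 10 Sox6 was at 2.84 after this step and at 3.77 without it. Sox2 and Sox10 were at 5.92 and 6.90 after it, and at 5.63 and 7.06 without it, whereas on day 14 Sox12, which was 0.90 without this step, stood close to other long genes.

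**Figure D4:**
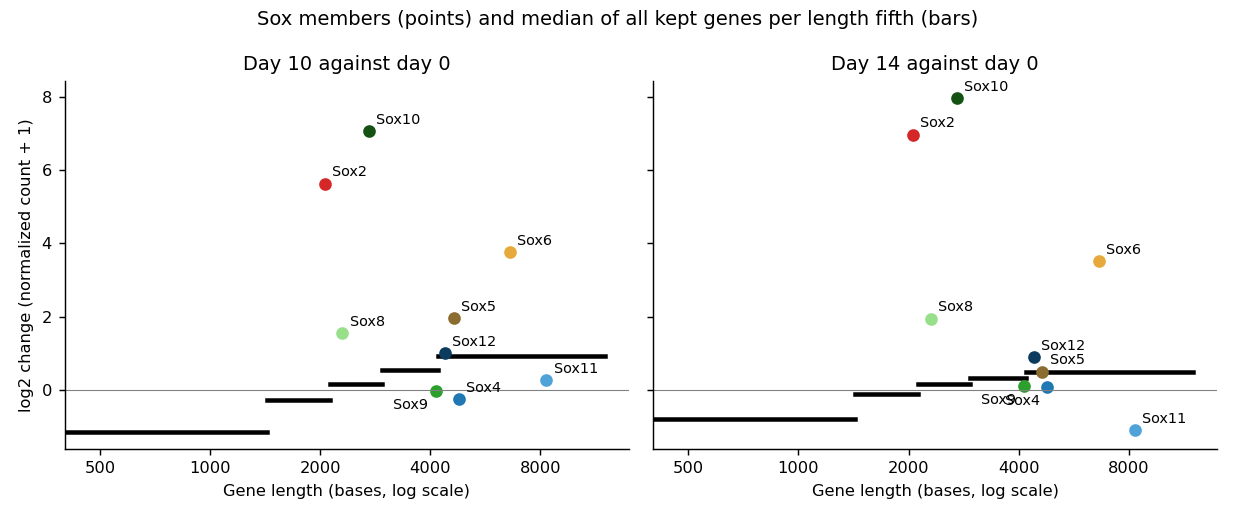
log2 change against day 0 of normalized count + 1 for the 9 Sox genes (points) against gene length in bases (log scale), with black bars for the median of all kept genes in each of 5 length groups, drawn within the axis. Sox10, Sox2 and Sox6 lie far above the bars on both days, and Sox11 lies below its bar of 0.50 on day 14 at -1.10.

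Of the other 11 Sox family genes in the tables, Sry among them, 3 were kept. Sox13, the remaining SoxD gene, had 10, 3, 40, 143 and 384 expected counts and was 34.7-fold (18.7 to 72.9) on day 14, with an interval that overlaps that of Sox6. Per length it was at 81.05 TPM (73.2 to 89.6) on day 14, above Sox4 at 59.48 TPM (54.3 to 64.9) in that library. Sox3, a SoxB1 relative of Sox2, had 0, 1, 4, 14 and 4, and Sox7, of the endothelial SoxF group, 0, 0, 29.0, 5.43 and 2. Sox1, Sox14 and Sry were at 0 in all 5 libraries.

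The label of the cells was compared with markers of the types such a culture could hold. Fibroblast markers were present in all libraries, with none of the 9 at 0 and summed normalized counts between 20532 and 60296. Most of these sums came from the collagen genes Col1a1, Col1a2 and Col3a1. As a list they were split on day 14, with 3 over 2-fold higher and 3 lower. Dcn was then 29.3-fold (24.1 to 36.0) and Twist2 0.150-fold (0.108 to 0.207) of day 0. Macrophage markers summed to 194, 1810, 3438, 1795 and 1303 normalized counts from day 0 to day 14, with 7 of 7 over 2-fold higher on days 2 and 5. For Ptprc the day 2 call rests on 1 expected count against 0. Of 6 endothelial markers 3 were kept, of which 2 were over 2-fold higher and 1 lower on day 2, and 0 and 1 on day 14. The lower gene was Kdr, which went from 238 expected counts on day 0 to 2, 6, 9 and 4. The other kept genes had few counts, with 1, 3, 3, 13 and 2 for Tek and 4.02, 10.0, 14.7, 10.3 and 4.14 for Vwf. Astrocyte markers were over 2-fold higher in 5 of 5 on days 10 and 14, and Gfap had 0, 7, 52, 308 and 150 expected counts. For Slc1a2, with 1, 4, 1, 10.1 and 4 expected counts, the call rests on values near the floor. The part of these cells, and of the Schwann cell and neural crest types above, in the levels of Sox2 and of the other Sox genes was not tested.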

How the data were processed

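RNA from 5 time points was sequenced, 1 library each. Per the labels, the submitters' processing notes name Bowtie, RSEM and the mouse genome build mm10. Versions, gene annotation, filters and strand setting are not given in the sources used here. The authors deposited, for each gene and library, expected counts, estimated by RSEM and not always whole, with TPM and FPKM values (scaled by gene length and library total) and gene length in bases. FPKM was not used. Of 45 values of the Sox genes, 36 are whole numbers within 0.05.

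GENCODE M21 (GRCm38) gave symbols for 27247 of the 27729 gene identifiers. The other 482 held 0.169% to 0.616% of the counts of a library. Expected counts were rounded to whole numbers for TMM factors (edgeR 4.0.16, R 4.3.3) and for intervals. Normalized counts are expected counts divided by effective library size and scaled to its geometric mean. The filter kept genes that reached 10 expected counts in at least 1 library. Changes are log2 ratios with a pseudocount of 1 (for TPM values, 1 TPM), with a threshold of 2-fold. Intervals of folds (Clopper-Pearson) and of levels (Poisson) are exact at 95%. With 1 library per day there is no test. A floor of 3 counts per library stood in for 0. Promoter sequences came from RefSeq.

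The named genes are the 9 Sox genes, up to 3 kept genes with the largest change on day 14 from each list, and the 3 genes with the most similar day course. Some genes that this rule picks are not reported here. The Sox genes and the lists were chosen with earlier results of these data known. Alternatives were DESeq2 1.42.0 size factors, upper-quartile factors, library totals, TPM, library sizes without Gm42418 and Lars2, pseudocounts of 5 and 0.5, other filters, a threshold of 4-fold and subtraction of the median of genes of like length, in 5 groups. The computations were tested on simulated data. Scripts used Python 3.11.15 with pandas 2.3.3, scipy 1.17.1, numpy 2.4.6 and, for plots, matplotlib 3.10.9.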

Additional observations from a re-analysis of the deposited data

How the results depend on the processing

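The promoter motifs and TMM factors without the day 2 library were chosen after seeing the data. No paired analysis was possible because each day has 1 library, and for the same reason no library could be left out of a group. DESeq2 factors, upper-quartile factors, library sizes without Gm42418 and Lars2 and TMM factors without day 2 moved no change of a Sox gene beyond its counting interval and no number of Sox genes over 2-fold by more than 1.5 times. TPM values moved 26 of 63 changes of single Sox genes beyond that interval, length-group subtraction 19 and library totals 9, and TPM turned Sox5 on day 2 to -0.40.

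The numbers of Sox genes over 2-fold depended on low counts. On day 2, 0 were higher and 0 lower with TPM (pseudocount of 1 TPM) or with a 4-fold threshold. With a pseudocount of 5, 0 were lower, and among genes with 100 or more counts 1 was lower. On day 5, 2 were higher with a pseudocount of 5, with length-group subtraction or at 4-fold. On day 10, 3 were higher at 4-fold or among genes with 100 or more counts, and 1 was lower (Sox4) after length-group subtraction. On day 14, 0 were lower with library totals, TPM or a 4-fold threshold, where the change of Sox11 was -0.75 with library totals and -0.18 with TPM.

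With normalized counts per kilobase 5 of 9 genes kept their rank of day 0, and SoxD (Sox5 and Sox6 only) held 2.00% on day 0. Counts not divided by length gave 86.9% for SoxC, 2.43% for SoxD and 10.2% for SoxE on day 0, and 14.8% for SoxB1, 19.1% for SoxC, 4.54% for SoxD and 61.6% for SoxE on day 14. The cause of these differences beyond the change of scale was not tested. Low counts, as of Sox8 in all libraries, of Sox5 in most, and of Sox2, Sox6 and Sox10 on days 0 and 2, limit what the depth can show.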
